A study of Daphnia magna with 12 samples.

Results

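A set of 53 genes of the water flea Daphnia magna was examined that stood at 3 or more times the control level after exposure to cholinium chloride (CholCl) and near the control level after either of the imidazolium chlorides tested. The set was chosen by measured values. For each of the 20266 genes with 10 or more reads in total, the median of the 3 libraries of each group was taken in CPM (reads of a gene scaled to a common library size, here with TMM factors) and 0.1 was added. A gene belonged to the set when its CholCl median was at least 5 and at least 3 times the control median, and when its C2mimCl and C12mimCl medians both lay above 0.5 and below 1.5 times the control median. The set is 0.262% of these genes and 25.6% of the 207 genes that met the CholCl part of the rule. Because every comparison of these groups was used to choose the genes, the fold changes and calls given for them are descriptions and not evidence that the set responds.

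The groups differed in the medium in which neonates less than 10 h old, all from the third brood of common cultures, were kept for 48 h without food. They were CholCl at its EC20, 1-ethyl-3-methylimidazolium chloride (C2mimCl) at its EC20, C12mimCl at its EC20 (the labels give it as 1-dodecyl chloride-3-methylimidazolium) and blank ASTM medium as control. The EC20 is the concentration that gives 20% of a measured effect. Neither that effect nor any concentration is stated in the labels. The salts are compared here at the same nominal effect level and not at matched concentration. No measure of the effect in these vessels is given. Each group had 3 vessels of 120 animals, and each vessel gave 1 library from a pool of 90 whole animals that were still active, so a change in tissue make-up and a change in RNA per cell cannot be told apart.

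Cholinium, or choline, is a quaternary ammonium alcohol that animal cells take up and use. It is built into phosphatidylcholine of membranes, it is the precursor of the transmitter acetylcholine, and its oxidation gives betaine, a methyl donor and an osmolyte. The imidazolium cations are synthetic, and C2mimCl and C12mimCl differ in the alkyl chain on the ring, which is ethyl in C2mimCl and dodecyl in C12mimCl. The deposited files give each gene a numbered identifier without a name, and 0 of the identifiers were found in the RefSeq gene table of 28335 genes used here (assembly ASM2063170v1.1). No function or position is therefore given for any gene, and levels of different genes, which were not corrected for length, are not ranked as transcript numbers.

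The libraries held between 12502019 and 15539051 reads in genes. Each replicate is a vessel of its own, filled at random from 1 pool of neonates, and the spread given here is that between vessels. C2mimCl replicate 1 stood apart from its group. Its counts differed from those of replicates 2 and 3 by a chi-square of 203 and 160 per degree of freedom, against 15.9 between replicates 2 and 3, and the calls, ratios and spread of C2mimCl over the set are given with and without it. Reads that lay in no gene were tallied apart from reads without a unique position. Those in no gene made up 5.25% to 5.83% of each CholCl library and 5.83% to 7.61% of each C2mimCl library. Their share was 8.11% to 10.1% of each C12mimCl library and 6.32% to 8.39% of each control library. The most abundant gene of the data, which is not in the set, took 14% to 19.3% of gene reads after CholCl, 7.07% to 12.4% after C2mimCl, 7.57% to 8.54% after C12mimCl and 5.68% to 8.52% in controls. The part of either in the results was not tested.

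Together the 53 genes held 2.4%, 2.26% and 2.13% of gene reads in the CholCl libraries. They held 0.469%, 0.482% and 0.468% in the C2mimCl libraries, 0.547%, 0.717% and 0.511% in the C12mimCl libraries, and 0.5%, 0.515% and 0.506% in the controls. The group means were 2.26% ± 0.135 after CholCl, 0.473% ± 0.00761 after C2mimCl, 0.592% ± 0.11 after C12mimCl and 0.507% ± 0.00752 in controls (SD, n = 3 each). The CholCl share was 4.46 times that of controls. The widest 95% Wilson interval on these shares had a half-width of 0.00808 percentage points, which covers counting error only. The 2 genes with the most reads, Dapma7bEVm004488 and Dapma7bEVm009585, made up 46.1% of the set's reads after CholCl and 42% in controls. Without them, the other genes held 1.3%, 1.22% and 1.14% of gene reads after CholCl and 0.298%, 0.292% and 0.293% in controls. Among the C12mimCl libraries replicate 2 stood above the others.

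**Figure D1:**
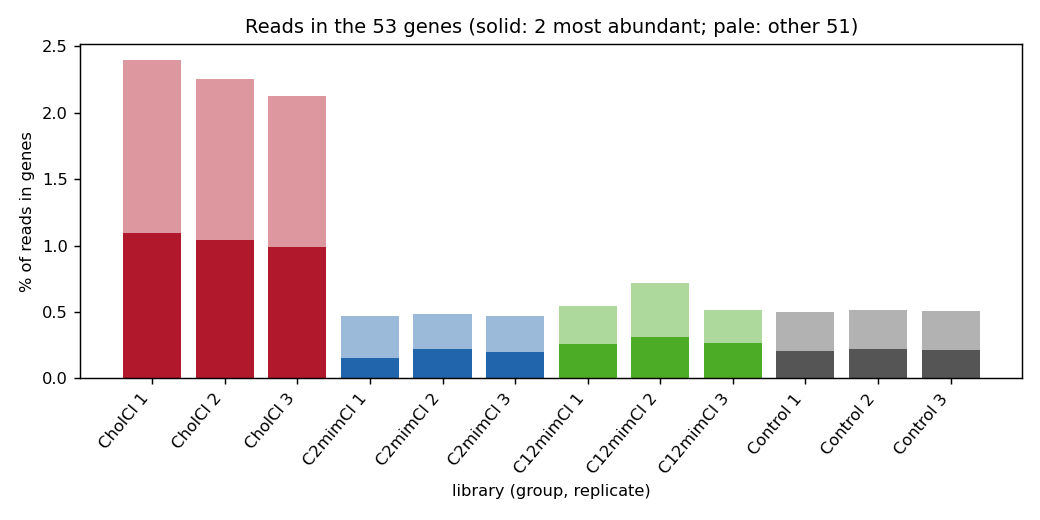
Share of reads in genes (y axis, %) that fell in the 53 genes, for each library (x axis, by group and replicate); the solid part is the 2 genes with the most reads and the pale part the other genes of the set. The CholCl libraries lie between 2.13% and 2.4%, and the 9 other libraries between 0.468% and 0.717%.

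Most of the set lay not far above the bound of 3, at which the rule cuts off smaller ratios. The ratio of the CholCl median to the control median ranged from 3.01 to 10.9, with a median of 3.82 and quartiles of 3.33 and 4.58. It was below 4 in 33 genes, from 4 to below 6 in 13, and 6 or more in 7. Only 1 gene, Dapma7bEVm001668, exceeded 8. Levels covered a wider range than ratios, since control medians ran from 0.84 to 1047 CPM and CholCl medians from 5.13 to 5394 CPM. Control medians were below 10 CPM in 25 genes, from 10 to below 100 CPM in 15 and at least 100 CPM in 13. The 23 genes with a control median of at least 20 CPM had a median ratio of 4.29 and the 30 below that level 3.38, with overlapping ranges of 3.07 to 10.9 and 3.01 to 7.29.

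In 46 of the 53 genes the highest CholCl library was within 1.5 times the lowest. The median coefficient of variation (SD over mean) after CholCl was 11.3% over the set. Over the 9568 genes with a CholCl median of at least 5 it was lower, at 8.81%. The rule itself favours a gap between CholCl and the other groups, and the share of all genes with such a gap is not given here. In 33 genes the lowest CholCl library was at least 2 times the highest of the other 9 libraries. In 52 genes all 3 CholCl libraries lay above each of the other 9. The exception was Dapma7bEVm028109, with 46.7, 22.1 and 42.3 CPM after CholCl, 9.77, 23.2 and 15.1 CPM after C2mimCl, 17.6, 16.9 and 17.1 CPM after C12mimCl, and 10.1, 12.6 and 17.7 CPM in controls. Its CholCl replicate 2 lay below C2mimCl replicate 2, and its CholCl libraries had the widest spread of the set, the highest being 2.11 times the lowest. The next widest were Dapma7bEVm004489 at 1.63 times and Dapma7bEVm014117 at 1.6 times, the last with 23.7, 17 and 27.3 CPM after CholCl, 3.42, 14.3 and 9.78 CPM after C2mimCl, 6.62, 5.75 and 5.93 CPM after C12mimCl, and 3.95, 6.61 and 7.25 CPM in controls. Over the set, CholCl replicate 1 was the highest of its group in 37 of 53 genes, against 35.4% of the 9568 genes with a CholCl median of at least 5.

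**Figure D2:**
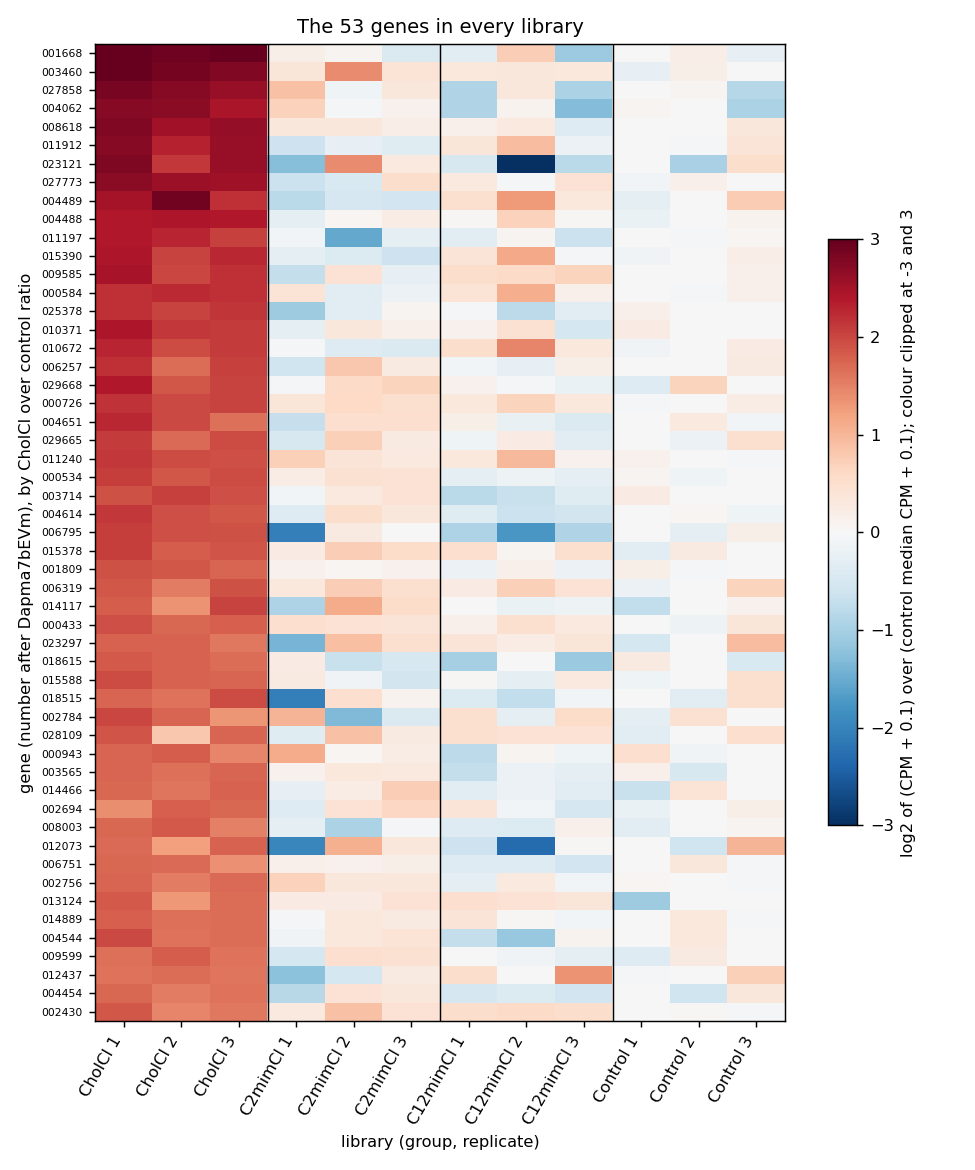
Each row is 1 of the 53 genes (identified by the digits after Dapma7bEVm, ordered by CholCl over control ratio), each column a library, and colour gives the log2 ratio of its CPM + 0.1 to the control median + 0.1, clipped at -3 and 3. The CholCl columns are red in each row, while the C2mimCl and C12mimCl columns are pale with scattered red and blue cells, among them C2mimCl replicate 1 and C12mimCl replicate 2.

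The gene with the largest ratio was Dapma7bEVm001668. It had 778, 507 and 731 CPM after CholCl, 76, 70.6 and 49.4 CPM after C2mimCl, 52.9, 111 and 31.5 CPM after C12mimCl, and 66.7, 76.1 and 55.8 CPM in controls. The lowest CholCl library was 4.55 times the highest of the other 9, the widest such gap in the set with 0.1 added to both. Its fitted log2 fold change over control was 3.34 with SE 0.42, and its means were 672 ± 145 CPM after CholCl and 66.2 ± 10.1 CPM in controls (SD, n = 3 each).

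Dapma7bEVm003460 followed, at lower levels. It had 48.4, 37.4 and 35.4 CPM after CholCl, 6.47, 13.6 and 6.74 CPM after C2mimCl, 6.31, 6.43 and 6.31 CPM after C12mimCl, and 4.26, 5.68 and 5.04 CPM in controls. C2mimCl replicate 2 was about 2 times its group's other libraries, and all 6 imidazolium libraries lay above the highest control. Its log2 fold change for CholCl over control was 3.01 with SE 0.28.

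Dapma7bEVm027858 and Dapma7bEVm004062 had a common pattern in the imidazolium groups. Dapma7bEVm027858 had 79.1, 73.7 and 67.2 CPM after CholCl, 20.3, 10.1 and 14 CPM after C2mimCl, 5.87, 13.9 and 5.62 CPM after C12mimCl, and 11, 11.6 and 6.07 CPM in controls. Dapma7bEVm004062 had 294, 286 and 238 CPM after CholCl, 70.7, 42 and 48 CPM after C2mimCl, 23.5, 47.3 and 17.9 CPM after C12mimCl, and 46.1, 43.8 and 22.6 CPM in controls. In both genes C2mimCl replicate 1 and C12mimCl replicate 2 were the highest of their groups, and control replicate 3 was the lowest control. The C12mimCl median was 0.54 times the control median in each, close to the lower bound of the rule. Dapma7bEVm018615 had the same order of libraries, with a C12mimCl ratio of 0.503. C12mimCl replicate 2 was the highest of its group in 28 of the 53 genes, against 45.5% of the 9568 genes with a CholCl median of at least 5. The log2 fold changes for CholCl over control were 2.94 (SE 0.40) for Dapma7bEVm027858 and 2.86 (SE 0.39) for Dapma7bEVm004062.

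Dapma7bEVm008618 had the smallest SE of the 5 genes with the largest ratios. It had 166, 139 and 151 CPM after CholCl, 30.3, 30.7 and 27.8 CPM after C2mimCl, 27, 29.8 and 18.3 CPM after C12mimCl, and 24, 24.1 and 30.7 CPM in controls. The lowest CholCl library was 4.51 times the highest of the other 9 (0.1 added to both), and the log2 fold change over control was 2.53 with SE 0.19.

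Among the genes with the most reads after CholCl, Dapma7bEVm004488 had the smallest spread between CholCl vessels. It had 5317, 5444 and 5394 CPM after CholCl, 825, 1056 and 1174 CPM after C2mimCl, 1031, 1636 and 1044 CPM after C12mimCl, and 877, 1012 and 1083 CPM in controls. The highest CholCl library was 1.02 times the lowest, and the log2 fold change over control was 2.44 with SE 0.21. The next identifier in number, Dapma7bEVm004489, was also in the set. It had 266, 352 and 217 CPM after CholCl, 26.8, 33.2 and 31.9 CPM after C2mimCl, 65.9, 114 and 58.6 CPM after C12mimCl, and 39.3, 47.3 and 80.3 CPM in controls. Whether these genes share sequence was not tested. Reads without a unique position, which near-identical copies can give, were tallied apart from the genes by the counting.

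Dapma7bEVm009585 had the highest control median of the set, followed by Dapma7bEVm004488 and Dapma7bEVm015390. Dapma7bEVm009585 had 5841, 4195 and 4804 CPM after CholCl, 641, 1419 and 887 CPM after C2mimCl, 1501, 1551 and 1673 CPM after C12mimCl, and 1047, 1033 and 1170 CPM in controls. All 3 C12mimCl libraries lay above all 3 controls, with a ratio of medians of 1.48 that is just inside the upper bound, whereas the C2mimCl libraries lay on both sides of the controls. The log2 fold change for CholCl over control was 2.19 with SE 0.25.

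Dapma7bEVm015390 and Dapma7bEVm011912 resembled each other. Dapma7bEVm015390 had 1621, 1227 and 1441 CPM after CholCl, 251, 228 and 197 CPM after C2mimCl, 391, 656 and 294 CPM after C12mimCl, and 281, 301 and 345 CPM in controls. Dapma7bEVm011912 had 1124, 838 and 1044 CPM after CholCl, 111, 143 and 132 CPM after C2mimCl, 218, 321 and 150 CPM after C12mimCl, and 170, 167 and 224 CPM in controls. In each, all 3 C2mimCl libraries lay below all 3 controls and C12mimCl replicate 2 was the highest library outside CholCl. These traits also held for Dapma7bEVm004489 and Dapma7bEVm011197. Dapma7bEVm011197 had 1435, 1338 and 1129 CPM after CholCl, 259, 93.5 and 222 CPM after C2mimCl, 218, 287 and 176 CPM after C12mimCl, and 273, 265 and 285 CPM in controls. Its low C2mimCl library was replicate 2, and its log2 fold change for CholCl over control was 2.25 with SE 0.32.

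**Figure D3:**
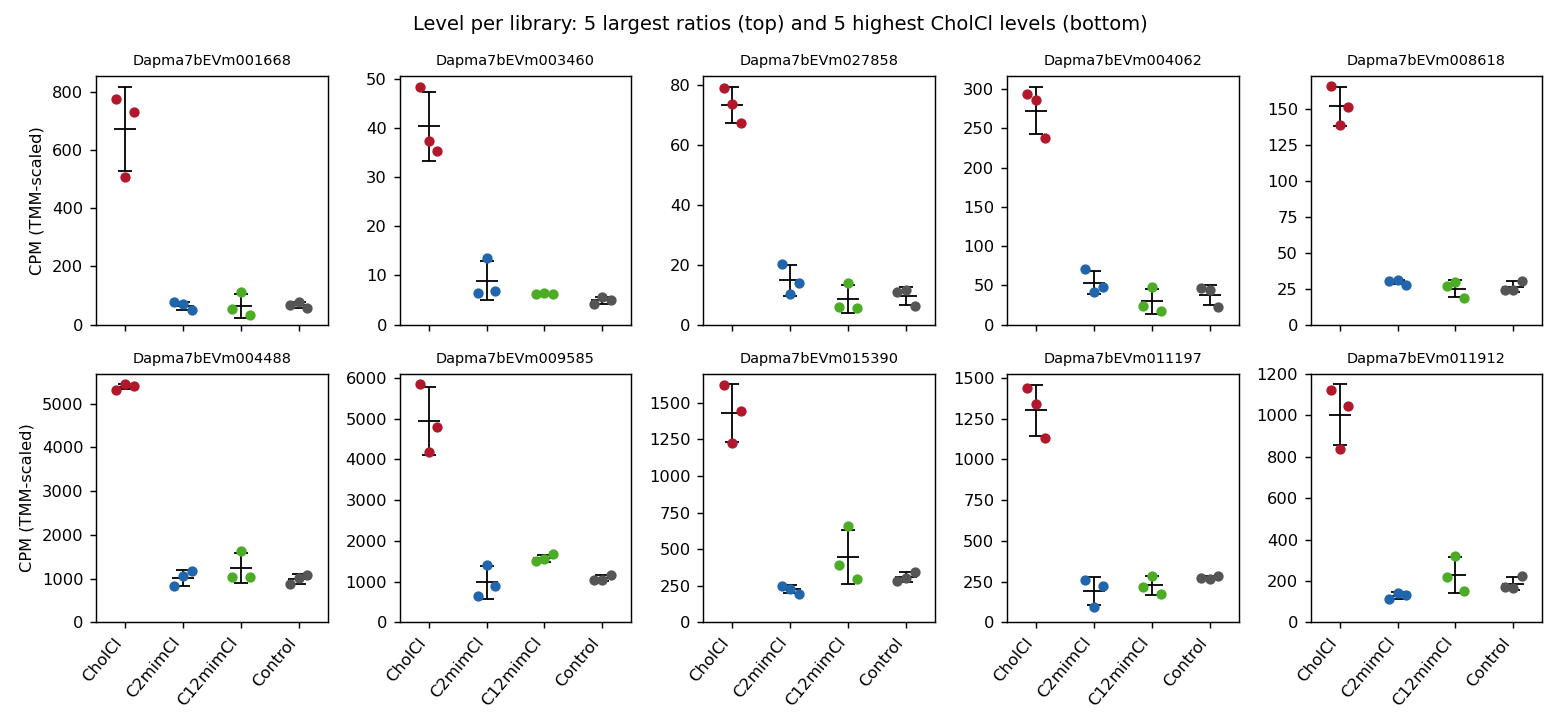
CPM (y axis, linear, from 0) in each library for the 5 genes with the largest CholCl over control ratios (top row) and the 5 with the highest CholCl medians (bottom row); points are libraries, and black bars are the mean ± SD of 3. In each panel the 3 CholCl points lie above the 9 others. C12mimCl replicate 2 (middle green point) is the highest of its group in 9 of the 10 genes, all but Dapma7bEVm009585. It was also the highest in 45.5% of the 9568 genes with a CholCl median of at least 5.

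At the low end of the set the values rest on few reads. Dapma7bEVm023121, the gene nearest to the 5 CPM floor, had 78, 52 and 63 reads after CholCl, 4, 26 and 11 after C2mimCl, 8, 0 and 5 after C12mimCl, and 12, 5 and 14 in controls. The count of 0 allows up to 0.227 CPM in that library (3 reads). Its log2 fold change for CholCl over control of 2.73 had an SE of 0.71. Dapma7bEVm012073 was the only gene of the set that edgeR's quasi-likelihood test did not call higher after CholCl than in controls. It had 120, 93 and 116 reads after CholCl, 10, 69 and 40 after C2mimCl, 27, 6 and 36 after C12mimCl, and 43, 26 and 69 in controls, a log2 fold change for CholCl over control of 1.33 with SE 0.71. Its ratio of medians of 3.26 became 2.16 without control replicate 2, the largest relative drop of any gene when 1 library was left out, and the next was that of Dapma7bEVm023297, from which leaving out control replicate 1 left a ratio of 2.37 where the 12 libraries gave 3.42.

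The fit across all 20266 genes, with edgeR's quasi-likelihood test and a Benjamini-Hochberg adjusted p below 0.05, gave the following calls. Against control, CholCl was called higher for 52 of the 53 genes, where 11.1% of all genes tested were called higher. The median log2 fold change was 1.91 in the set, with a range of 1.33 to 3.34, and -0.10 over all genes. Directly against C2mimCl, CholCl was called higher for 51 of 53 genes, where 7.9% of all genes were, with a median log2 difference of 1.74 in the set and -0.06 over all genes. The genes not called were Dapma7bEVm012073 and Dapma7bEVm023297, and without C2mimCl replicate 1 the count was 49. Directly against C12mimCl, CholCl was called higher for 52 of 53 genes, where 22.5% of all genes were, with a median log2 difference of 2.01 in the set and -0.04 over all genes. The gene not called was Dapma7bEVm012437. The rule used these groups' medians, so nothing is read from the counts.

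For C2mimCl against control, 0 of the 53 genes were called in either direction by edgeR's quasi-likelihood test, where 0.977% of all genes were called. At an unadjusted p below 0.05 the count was 9, where 14.6% of all genes stood, and DESeq2's Wald test called 1. Without C2mimCl replicate 1, edgeR called 4 of the 53 genes and 11% of all genes. For C12mimCl against control, 4 of the 53 genes were called, where 26.8% of all genes were. Dapma7bEVm010672 and Dapma7bEVm002430 were higher, by log2 0.80 (SE 0.26) and 0.55 (SE 0.17), and Dapma7bEVm003714 and Dapma7bEVm006751 were lower, with log2 fold changes of -0.69 (SE 0.18) and -0.57 (SE 0.16). These 4 were singled out after their values were seen. Their count became 1 without control replicate 1 or 2, 0 without C12mimCl replicate 1, 2 without C12mimCl replicate 2, C2mimCl replicate 3 or CholCl replicate 3, and 10 without C2mimCl replicate 1.

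The imidazolium salts, which differ in chain length, were also compared with each other over the set. C12mimCl differed from C2mimCl in 11 of 53 genes, where 35.6% of all genes were called, with 5 genes higher after C12mimCl and 6 lower. The widest called difference was that of Dapma7bEVm004489, with 65.9, 114 and 58.6 CPM after C12mimCl and 26.8, 33.2 and 31.9 CPM after C2mimCl, a log2 difference of 1.38 with SE 0.31. The other 4 called higher were Dapma7bEVm010672, Dapma7bEVm015390, Dapma7bEVm011912 and Dapma7bEVm009585, at 0.68 to 1.14 on the log2 scale. The 6 called lower lay between -0.83 and -0.48. Without C2mimCl replicate 1 the count was 22, where 44.9% of all genes were called. The rule bounds both medians against control, which limits how far these salts can differ in the set.

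The C2mimCl medians were not centred on the control level within the bounds. Their ratio to control had a median of 1.2, with quartiles of 0.925 and 1.31, and 39 of the 53 genes lay above 1. Without C2mimCl replicate 1 the median of the same genes was 1.25, with 40 above 1 and 10 at 1.5 or more. The C12mimCl ratio had a median of 0.949, with quartiles of 0.792 and 1.28, and 24 of 53 genes lay above 1. Over the 6060 genes with a CholCl median of at least 5 and both imidazolium medians inside the same bounds, the median ratio was 1.01 for C2mimCl and 0.943 for C12mimCl, and 52.1% and 44.2% of genes lay above 1. All of these ratios share the control libraries with the CholCl ratio that chose the genes. For C12mimCl the side depended on the scaling, since 22 of 53 fitted log2 fold changes were above 0 with TMM factors and 36 with upper-quartile factors. For C2mimCl these were 36 and 39. The median log2 ratio of C12mimCl to control over all genes was 0.01 with TMM factors and 0.20 with upper-quartile factors. For C2mimCl it was -0.02 and 0.01. The change of side for C12mimCl therefore came with a shift over all genes.

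The upper bound on C2mimCl did not mark a gap in the data. Among the 123 genes that met the CholCl part of the rule and the C12mimCl bounds, the C2mimCl ratio lay from 1 to below 1.5 in 39 genes, from 1.5 to below 2 in 28 and from 2 to below 2.5 in 21. The upper bound of 1.5 divides a continuous range near its median of 1.51, and 64 genes were outside the set through that bound only. Among genes that met the CholCl part and the C2mimCl bounds, the lower bound on C12mimCl left out 20 genes and its upper bound 12. Whatever the C2mimCl ratio, 56 genes that met the CholCl part had a C12mimCl median of 0.5 times control or less. Beyond the upper C12mimCl bound lay the 12 genes and 16 others, which were also beyond the upper C2mimCl bound.

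**Figure D4:**
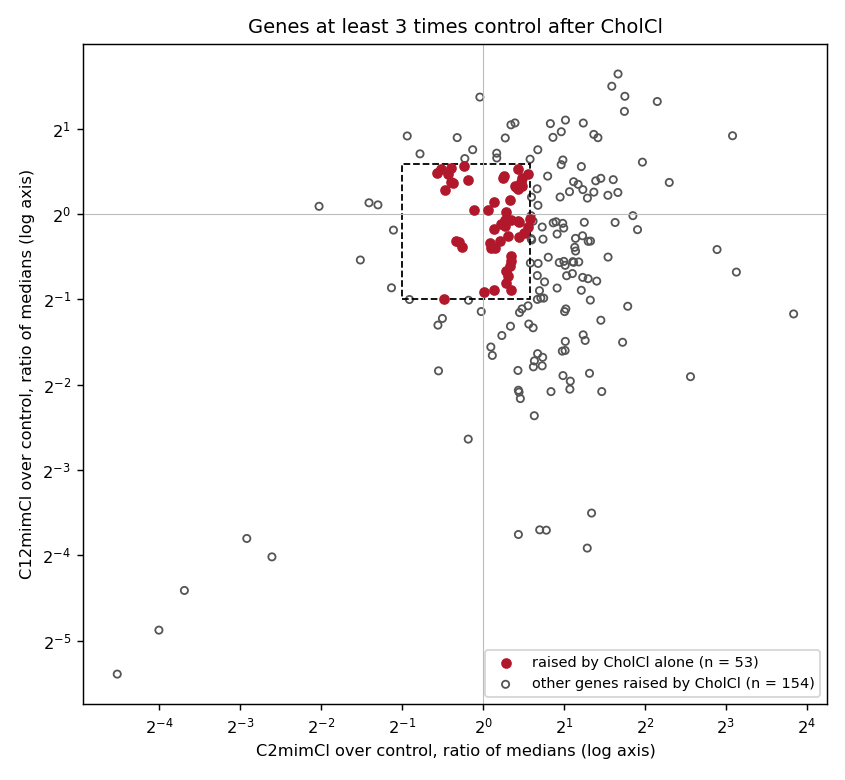
Ratio of the C2mimCl median (x axis, log scale) and of the C12mimCl median (y axis, log scale) to the control median for the 207 genes with a CholCl median of at least 5 and at least 3 times control; filled points are the 53 genes of the set, open points the other 154, and the dashed box marks the bounds at 0.5 and 1.5. Open points lie directly outside the right edge of the box, with no gap between them and the filled ones.

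Genes next to a bound mostly had nearly equal values of the bounded quantity on both sides. At the fold of 3, Dapma7bEVm002430 was inside at 3.01 with 30.8, 23.4 and 25.6 CPM after CholCl and 8.45, 8.72 and 8.12 CPM in controls, and Dapma7bEVm027739 was outside at 2.998 with 13.1, 13.6 and 12.9 CPM after CholCl and 4.32, 3.83 and 5.44 CPM in controls. At the upper C2mimCl bound, Dapma7bEVm029668 was inside at 1.498 with 3.24, 5.13 and 5.48 CPM after C2mimCl and 2.59, 5.42 and 3.39 CPM in controls, and Dapma7bEVm009054 was outside with 0.855, 4.22 and 4.21 CPM after C2mimCl and 2.1, 2.78 and 2.92 CPM in controls. At the lower C2mimCl bound the nearest genes were farther apart, Dapma7bEVm004489 inside at 0.676 and Dapma7bEVm009660 outside at 0.464. For C12mimCl, Dapma7bEVm009585 was inside the upper bound at 1.48 and Dapma7bEVm005234 outside at 1.56, and Dapma7bEVm018615 was inside the lower bound at 0.503 and Dapma7bEVm027626 outside at 0.499. At the floor of 5 CPM, Dapma7bEVm023121 was inside at 5.13 and Dapma7bEVm008475 outside at 4.9.

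Genes were also chosen from 11 libraries and read in the library left out. Only the left-out library is new in such a ratio. The median it is set against, that of control or, for a left-out control, of CholCl, also chose the genes, so the ratios are not independent of the rule and are given as a description. Of 47 genes chosen without CholCl replicate 1, 45 stood at 3 or more times the control median in that replicate and all 47 at 2 or more, with a median of 4.2. Of 63 chosen without CholCl replicate 2, 44 stood at 3 or more and 61 at 2 or more, with a median of 3.38. Of 61 chosen without CholCl replicate 3, 47 and 59 did so, with a median of 3.39. Over all genes, 1.18%, 0.913% and 1.09% stood at 3 or more times the control median and at 5 CPM or more in those replicates. With a control library left out, the CholCl median was 3 or more times that library in 47 of 57 genes for control replicate 1, 41 of 56 for replicate 2 and 35 of 52 for replicate 3, where 1.27%, 1.12% and 1.14% of all genes did so with a CholCl median of 5 or more.

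The left-out C2mimCl libraries differed among themselves. C2mimCl replicate 2 lay at 1.5 or more times the control median in 34 of the 78 genes chosen without it and inside the bounds in 37, with a median ratio of 1.4. Replicate 3 lay at 1.5 or more in 23 of 73 genes and inside in 46, with a median of 1.27. Replicate 1 lay at 1.5 or more in 8 of 45 and inside in 33, with a median of 0.948. Over all genes, 69.1%, 71.5% and 72.6% lay inside the bounds in replicates 2, 3 and 1. Near control after C2mimCl is a statement about medians of 3 libraries, 1 of which stood apart from the others. The C12mimCl library left out lay inside the bounds in 44 of 49 genes for replicate 1, 35 of 53 for replicate 2 and 39 of 49 for replicate 3, where 58%, 59.2% and 61.9% of all genes did.

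**Figure D5:**
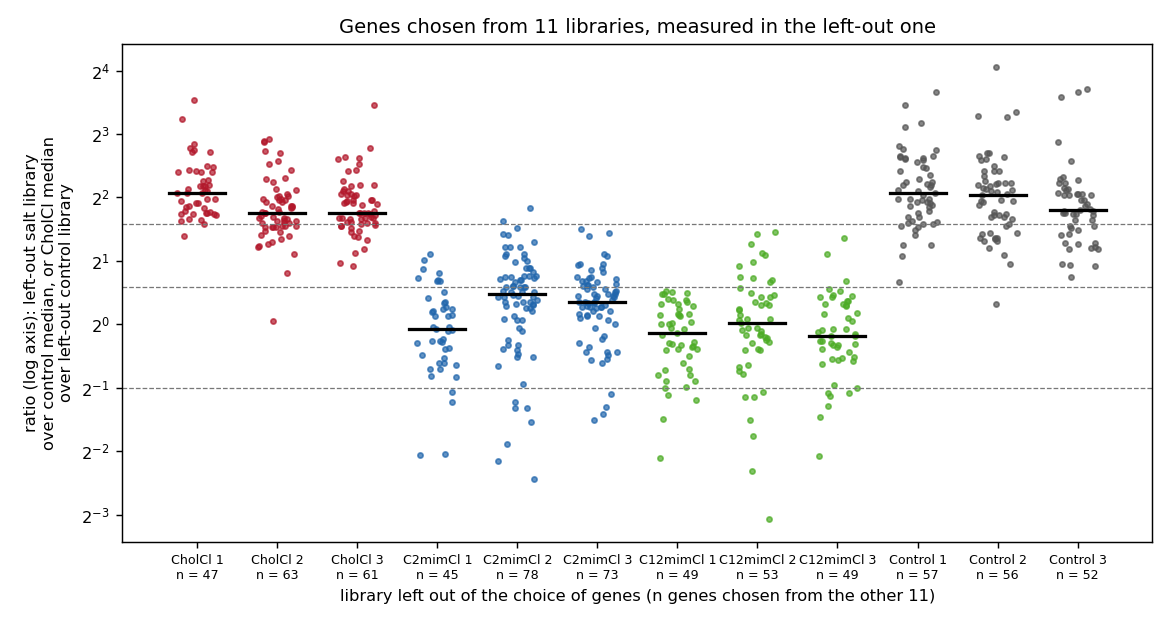
For each library (x axis, with the number n of genes chosen from the other 11), points give the ratio (y axis, log scale) of the left-out salt library to the control median or, for a left-out control, of the CholCl median to that library; black lines are medians and dashed lines mark 0.5, 1.5 and 3. Medians lie at 3.38 to 4.2 for CholCl and at 3.48 to 4.2 for controls, at 0.948 to 1.4 for C2mimCl and at 0.883 to 1.02 for C12mimCl.

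Membership itself depended on single vessels. Of the 53 genes, 19 were chosen in each of the 12 such selections, and 4 in fewer than 8. The 19 had CholCl over control ratios of 3.22 to 10.9 with a median of 3.94 and a median CholCl level of 151 CPM, and the other 34 had ratios of 3.01 to 7.29 with a median of 3.41 and a median level of 24.8 CPM. Dapma7bEVm001668, Dapma7bEVm008618, Dapma7bEVm004488 and Dapma7bEVm011197 were among the 19, and Dapma7bEVm023121 was chosen in 4 of the 12. Without C2mimCl replicate 1, 10 genes left the set, each through the upper C2mimCl bound. Scaling also decided membership, since upper-quartile factors gave 99 genes, of which 39 were among the 53. Of the 19 genes, 18 were also chosen with RLE factors, with upper-quartile factors and with library totals alone.

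The spread between vessels over these genes differed between groups. It was also taken with a library left out for C2mimCl only. The median coefficient of variation within a group was 11.3% after CholCl, 29.1% after C2mimCl, 21.1% after C12mimCl and 15.4% in controls. Over the 9568 genes with a CholCl median of at least 5 it was 8.81%, 19.1%, 11.3% and 15.3% in the same order. For C2mimCl replicates 2 and 3 alone the median was 9.46% over the set and 6.53% over the 9568. C2mimCl replicate 1 was the lowest of its group in 35 of 53 genes, against 45.9% of the 9568, and this held for 24 of the 30 genes with a control median under 20 CPM and for 11 of the 23 at or above it. C12mimCl replicate 2 was the highest of its group in 20 of those 23 and in 8 of the 30, against 45.5% of the 9568. Dapma7bEVm010672 shows the pattern, with 254, 481 and 218 CPM after C12mimCl and 162, 175 and 209 CPM in controls. The split at 20 CPM was made after the values were seen. It was not made for the 9568, whose shares are over all control levels, so whether other genes show the same split was not tested.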

How the data were processed

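Per the labels' protocols, mRNA libraries were made with a stranded kit and read as 150 bp pairs. The deposited files hold raw read counts per gene for each library, made by the authors with Trimmomatic 0.39, STAR 2.7.3a and HTSeq, per the submitters' processing notes. Not given in the sources used here are genome build, annotation and strand setting, and overlapping or antisense genes and near-identical copies are therefore uncertain. Library sizes and tests leave out the 5 summary rows, their largest shares being given above or, for reads without a unique position, 7.79% to 10% of a library.

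Of 46334 gene rows, 20266 with 10 or more reads (99.99% of gene reads) were tested with edgeR 4.0.16 under R 4.3.3. TMM factors, a robust quasi-likelihood fit with 1 mean per group over the 12 libraries and Benjamini-Hochberg adjustment over all genes were used. The fit was also run on simulated counts with known changes after CholCl only. The outcome of that run is not given here, and nothing is read from it. SE is the log2 fold change over the square root of its F statistic. No replicate pair was alike within sampling noise (lowest chi-square 15.9 per degree of freedom). The choice from 11 libraries used TMM factors of all 12.

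Named genes are those with the 5 largest ratios, the 5 highest CholCl and 3 highest control medians, those nearest to each bound, the 3 widest CholCl spreads and the 2 largest drops when a library was left out, and all other genes were named after their values were seen. The genes and the rule were chosen with earlier results of these data known. Other settings were RLE and upper-quartile factors, library totals, other filters, DESeq2 1.42.0, the replicate number as a block, a fit of the 6 libraries of a comparison, other constants and folds, means, and leaving out each library. The C2mimCl ratios and spread without replicate 1 were added after seeing the data.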

Additional observations from a re-analysis of the deposited data

How the results depend on the processing

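CholCl was called higher than control, C2mimCl and C12mimCl for 52, 51 and 52 of the 53 genes, and across the other settings for 52 to 53, 44 to 52 and 52 to 53; leaving out 1 library gave 47 to 52, 45 to 50 and 48 to 53. The C2mimCl count of 0 was 1 with DESeq2's Wald test and 0 to 4 with 1 library left out. The C12mimCl count of 4 was 9 with upper-quartile factors, 2 with the replicate number as a block and 0 to 10 with 1 library left out. C12mimCl differed from C2mimCl in 5 genes, where 11 had been called, when the 6 libraries compared were fitted alone, and in 8 to 22 with 1 library left out. The block changed no other call count by over 1.5 times, with 52, 50 and 53 genes called higher after CholCl. The replicate numbers were not taken to pair the vessels: deviations of same-numbered libraries correlated at -0.48 to 0.53, over 0.1 in 11 of 18 pairs, with replicate 3 positive in each of its pairs (0.18 to 0.53), and 5 of 12 libraries correlated best with their own number. The cause of these moves was not tested.

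The rule gave 71 genes with RLE factors (50 of the 53 among them), 99 with upper-quartile factors (39), 64 with library totals (44), 67 with means (39), 57 with a constant of 1 (39), 268 with a fold of 2, 20 with a fold of 4 and 45 to 78 without 1 library. The median log2 ratio of the set was 1.93, 2.20 with upper-quartile factors, where the median over all genes was 0.17 and not -0.08, and 1.84 to 1.98 without 1 library. The share of reads was 2.19% to 2.33% and the count of genes with CholCl above the other 9 libraries 52 to 53. Of the named genes' 190 fold changes under other settings, 182 kept direction and side of the threshold and 8, all of Dapma7bEVm023121 or Dapma7bEVm023297, lost the call with 1 library left out. Both genes had under 100 reads in each library, and the part of depth was not tested.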
